A study of Mus musculus with 3 samples.

Results

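Collagen genes encode the chains of a family of secreted matrix proteins, and they were taken as every symbol of the form Col, a number, the letter a and a number in the 3 deposited tables. This gave 43 genes of 28868 nuclear-encoded features. By type number, 11 were fibrillar (types I, II, III, V, XI, XXIV and XXVII), 8 belonged to basement membranes (type IV and the multiplexins XV and XVIII), 9 were FACIT collagens, which sit on the surface of fibrils, and 15 were of other types. The rule uses names only.

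Collagen chains fold in the endoplasmic reticulum into triple helices, where prolines and lysines are hydroxylated and the chaperone Serpinh1 binds the finished helix. Fibrillar procollagens are trimmed outside the cell and crosslinked into fibres by lysyl oxidases, while type IV collagen forms the sheet-like network under epithelia, around vessels and in the glomerular filter. In the embryonic kidney, interstitial stroma and smooth muscle are known for fibrillar collagens, whereas the ureteric bud, nephron epithelia and vessels lie on type IV and type XVIII collagen.

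Each group was 1 plate of 384 wells, so the study offers no replicate error, no p-value can be given, and intervals cover counting error only. The uncultured plate held cells from C57BL/6 E11.5 kidneys of the LGR6-EGFP-IRES-CreERT2 line. The other plates held cells from explanted kidneys on the same background with LGR6-EGFP-IRES-CreERT2/ROSA26-tdTomato, grown in medium with fetal calf serum: 1 from E12.5 kidneys cultured for 5 days, and 1 from E11.5 kidneys whose culture time is 7 days in its title and 5 days in its stage label. All cells were freed with collagenase and sorted into wells for SORT-seq, a plate method that counts polyadenylated transcripts with molecular identifiers. The sort gate, the number of animals pooled and any tamoxifen treatment are not given in the sources used here. Culture came with the tdTomato allele and with another run code, so the parts of these 3 cannot be told apart.

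Kept single-cell wells (at least 1000 counts and at most 30% mitochondrial) numbered 337 of 369, 200 of 327 and 300 of 327 on the uncultured, E12.5 cultured and E11.5 cultured plates, in the order used for all triplets of values here. They held 4159791, 2349129 and 3210838 counts, with medians per well of 6732, 9212 and 8992.5. The 15 control wells of each plate held a median of 4, 3 and 6 collagen counts, against 23, 182.55 and 216.15 in a kept well. Levels are CPM, the counts of the summed wells scaled to 1000000 nuclear-encoded counts. A gene was called higher or lower when the pair held at least 10 counts, the levels differed at least 2-fold and the 95% counting interval of the ratio left out 1.

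Collagen transcripts made up 0.376% of nuclear-encoded counts before culture, 2.42% after culture from E12.5 and 3.16% after culture from E11.5. The summed collagen level was 8.40-fold higher on the E11.5 cultured than on the uncultured plate (95% interval 8.26 to 8.54), and 6.45-fold higher after culture from E12.5 (6.33 to 6.56). The fibrillar sum rose most in CPM, from 2615 to 18637 and 25105. Basement membrane collagens stood at 620, 2120 and 1523, FACIT collagens at 130, 731 and 902, and the other types at 392, 2733 and 4022. Both cultured plates are set against the same uncultured plate, so these ratios share their denominator. In summed wells, fewer cells of a type and less RNA per cell cannot be told apart.

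Between the E11.5 cultured and the uncultured plate, 38 of the 43 collagen genes had at least 10 counts. Of these, 27 were higher and 1 was lower after culture, where 18.1% of all features tested were higher and 9.86% lower. The median log2 ratio was 2.21 for these collagens and 0.07 for all features. Between the E12.5 cultured and the uncultured plate, 26 of 36 were higher and 2 lower, beside 16.5% and 10.9% of all features. Genes with few counts could reach the 10-count minimum through the plate where they were high, so these shares describe the members that could be compared and not all 43.

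**Figure D1:**
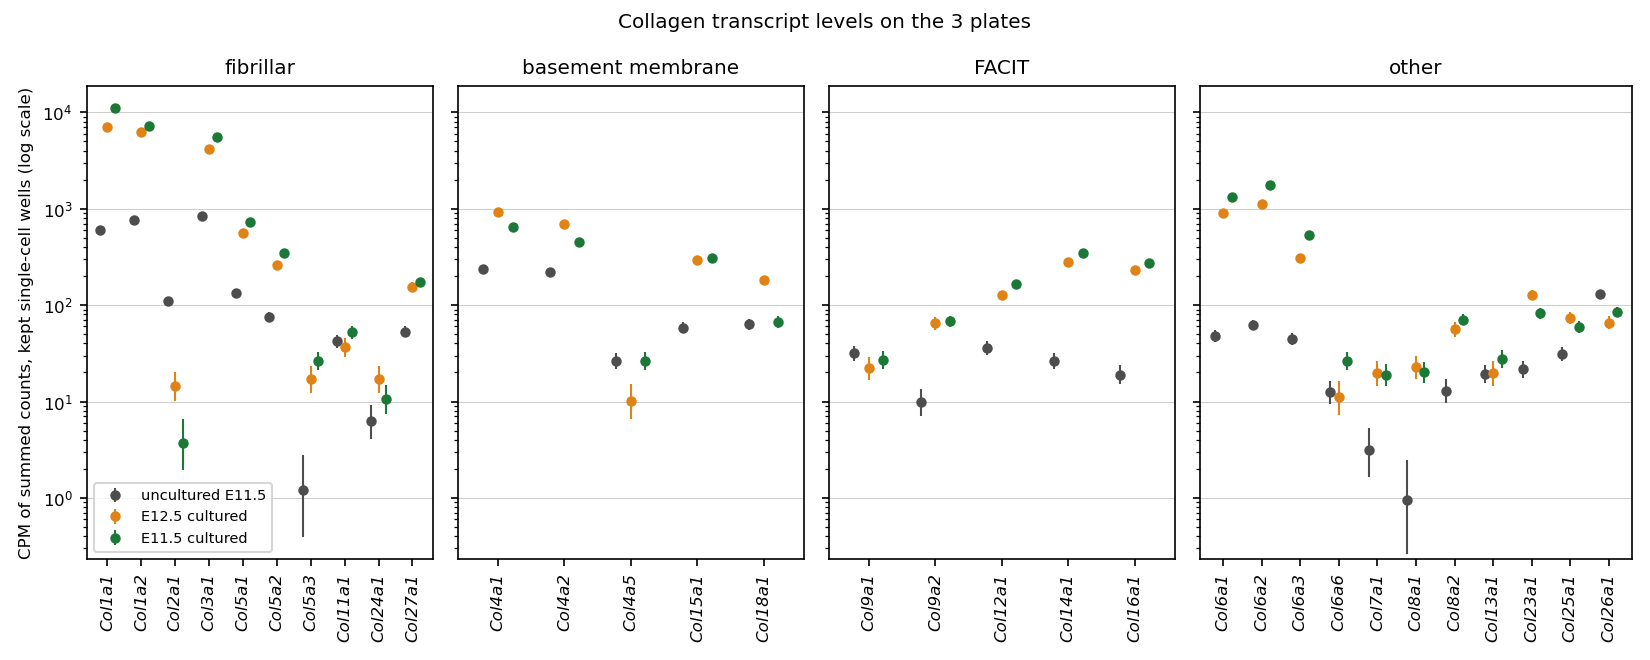
Level of each collagen gene with at least 100 counts (CPM of summed kept single-cell wells, log axis), by class, on the uncultured E11.5 (grey), E12.5 cultured (orange) and E11.5 cultured (green) plates; bars are 95% Poisson intervals and cover counting error only. The points of Col1a1 sit at 601, 7097 and 11105 CPM, and Col2a1 runs the other way, at 112, 14.5 and 3.74 CPM.

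The fibrillar class was led by the chains of types I and III, the main fibres of interstitial matrix. Col1a1 and Col1a2 encode the α1 and α2 chains of type I collagen, and Col3a1 the single chain of type III. Their promoter regions are shown because all 3 genes rose on both cultured plates; the table of RefSeq promoters (build GRCm38.p6) holds Col1a2 and Col3a1 but not Col1a1. The 250 bases before each transcription start are printed on the + strand, with capitals for GGGCGG and for CCAAT in Col1a2 and for TATAAA in Col3a1. Their positions are chr6:4505368-4505617 for Col1a2 and chr1:45311288-45311537 for Col3a1.
Col1a2: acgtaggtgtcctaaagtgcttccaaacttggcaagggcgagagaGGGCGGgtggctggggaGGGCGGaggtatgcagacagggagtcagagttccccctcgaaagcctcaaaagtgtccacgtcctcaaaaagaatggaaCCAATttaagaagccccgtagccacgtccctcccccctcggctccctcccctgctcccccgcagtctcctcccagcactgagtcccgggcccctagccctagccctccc
Col3a1: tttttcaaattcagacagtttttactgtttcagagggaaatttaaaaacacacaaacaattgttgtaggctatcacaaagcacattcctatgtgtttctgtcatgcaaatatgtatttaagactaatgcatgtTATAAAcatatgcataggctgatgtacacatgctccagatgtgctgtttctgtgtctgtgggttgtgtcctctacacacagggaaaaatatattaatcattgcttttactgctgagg
The Col1a2 stretch was 62% G or C and held CCAAT 109 bases before the start and GGGCGG 205 and 188 bases before it, whereas the Col3a1 stretch was 35.2% G or C and held TATAAA 117 bases before the start. Windows from 250 bases before to 50 after the start were found for 34 of the 43 genes, 37 windows in all. In each window only the 250 bases before the start were searched. Counting both strands, CCAAT stood in 13 of the 37 collagen windows (35.1%) and in 33.8% of all 32851 windows. The letters GGGCGG were in 22 of the collagen windows (59.5%), against 32.7% of all. TATAAA was in 4 (10.8%), against 12.4% of all. None of these motifs overlaps another in the stretches printed. A match is a string of letters and no measured binding.

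Col1a1 stood at 601 CPM (578 to 625) before culture, at 7097 (6990 to 7206) in the E12.5 culture and at 11105 in the E11.5 culture. It was low before culture and high on both cultured plates. The ratios were 11.8 (11.3 to 12.3) and 18.5 (17.7 to 19.3). As a mean of per-well levels the log2 ratio of the E11.5 cultured plate to the uncultured one was 3.80 in place of 4.21. In single wells the median Col1a1 level rose from 371 to 4284 and 7747 CPM, and the highest well from 6622 to 31178.4 and 44736.5.

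Col1a2 stood at 756, 6292 and 7166 CPM and Col3a1 at 834, 4185 and 5488. Both followed the order of Col1a1, with ratios to the uncultured plate of 8.33 and 9.48 for Col1a2 and of 5.02 and 6.58 for Col3a1. Type V collagen, which starts fibrils and sets their width, rose as well. Col5a1 went from 133 to 557 and 724 CPM, and Col5a2 from 75.1 to 260 and 349. Col5a3, another chain of this type, was near the floor before culture at 1.20 CPM and stood at 17.03 and 26.5 after it.

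The other fibrillar genes did not all follow. Col2a1, the type II collagen of cartilage and early mesenchyme, was at 112, 14.5 and 3.74 CPM. Uncultured wells with a Col2a1 count made up 43.3% of that plate, and 9.5% and 2.67% of the cultured ones, so before culture it was spread over many wells. With each well thinned to 1000 counts these shares were 12.46%, 1.5% and 0.333%. The cartilage marker list summed to 141 CPM before culture and 144 on the E11.5 cultured plate, with Comp at 0 on both and Matn1 at 0 on the latter. Col11a1, which forms mixed fibrils with type II, stood at 42.1, 36.6 and 52.0 CPM and was called in neither comparison. Col27a1, a fibrillar collagen of developing cartilage, rose from 52.9 to 156 and 175 CPM. Col24a1 had 6.25, 17.03 and 10.6 CPM and was called only on the E12.5 cultured plate (2.72-fold), and Col11a2, with 1.68, 4.26 and 5.61 CPM, only on the E11.5 cultured plate (3.33-fold).

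Basement membrane collagens rose less than the fibrillar class. Their summed ratio to the uncultured plate was 3.42 on the E12.5 cultured and 2.46 (2.34 to 2.58) on the E11.5 cultured plate, against 7.13 and 9.60 for the fibrillar sum. Col4a1 and Col4a2, the chains of the ubiquitous type IV network, stood at 239, 926 and 654 CPM and at 222, 689 and 452 CPM. Both were highest on the E12.5 cultured plate. Col15a1, a multiplexin of vessel and muscle basement membranes, rose from 58.5 to 292 and 307 CPM, and the share of wells holding it went from 9.79% to 53% and 66.3% (3.56%, 19.5% and 19.7% with wells thinned to 1000 counts). Col18a1, the multiplexin that carries endostatin, was at 63.0, 183 and 66.7 CPM, higher only on the E12.5 cultured plate (2.91-fold, 2.49 to 3.41). A single well of that plate with all 7 endothelial markers held 40.1% of its Col18a1 counts, and without it the level was 114 CPM. Col4a5, a chain of the glomerular and tubular network, stood at 26.4, 10.2 and 26.5 CPM and was 2.59-fold lower on the E12.5 cultured plate than on either other plate. Its partner Col4a6 had 8.41, 4.68 and 9.65 CPM.

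Among the FACIT collagens, 4 stood higher on both cultured plates together with the fibrillar genes. Col14a1, which binds fibrils in skin, tendon and stroma, rose from 26.2 to 280 and 351 CPM (10.7- and 13.4-fold). Col16a1 rose from 18.99 to 230 and 276 CPM (12.1- and 14.5-fold). Col12a1, a bridge between fibrils under tension, went from 35.8 to 126 and 165 CPM. The type IX chains parted: Col9a2 rose from 9.86 to 64.7 and 67.9 CPM, while Col9a1 had 31.7, 22.1 and 27.1 CPM and was called in neither comparison. Col20a1 had 2, 1 and 29 counts (E11.5 cultured over uncultured 18.8, 4.75 to 162.5), and 65.5% of the counts of the last plate lay in its 9 wells with at least 3 neural or neural crest markers.

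Type VI collagen, which forms beaded filaments between cells and fibres, rose on both cultured plates in its Col6a1, Col6a2 and Col6a3 chains. Col6a1 stood at 48.3, 913 and 1311 CPM, Col6a2 at 62.7, 1112 and 1760, and Col6a3 at 44.7, 305 and 538. Their ratios of E11.5 cultured to uncultured were 27.1, 28.1 and 12.03. Col6a6, an alternative to Col6a3, had 12.5006, 11.1 and 26.5 CPM. Col6a4 had 2, 1 and 37 counts and Col6a5 levels of 1.68, 6.81 and 8.41 CPM. Col8a2, a short-chain collagen of vessels and cornea, rose from 12.98 to 56.2 and 70.7 CPM, and its partner chain Col8a1 from 0.962 to 22.6 and 20.3. Col7a1, the anchoring fibril collagen, went from 3.13 to 19.6 and 18.998 CPM.

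Of the transmembrane collagens, Col23a1 rose from 21.6 to 127 and 82.2 CPM. Col25a1, known for its role in motor nerve targeting, stood at 31.3, 73.6 and 58.9 CPM and passed the fold on the E12.5 cultured plate (2.36-fold) but not on the other (1.88-fold). Col13a1, found at cell adhesion sites, stayed at 19.5, 19.6 and 27.7 CPM and was called in neither. Col26a1, a short collagen described in reproductive tissue, went down without being called, from 132 to 66.0 and 84.4 CPM. The remaining genes were close to the floor of 3 counts per plate: Col17a1 had 0, 1 and 5 counts, Col19a1 3, 3 and 1, Col22a1 3, 5 and 3, and Col28a1 0, 0 and 4. Zero counts allowed up to 0.721, 1.28 and 0.934 CPM on the 3 plates. Col9a3, the last type IX chain, had 5.29, 3.83 and 5.29 CPM.

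Cell type markers moved with the collagens between the plates. In the E11.5 cultured plate against the uncultured one, 7 of 12 stromal markers were higher and 1 lower (6119 against 1496 CPM summed), 5 of 6 smooth muscle and pericyte markers were higher (1338 against 214 CPM), and 10 of 12 nephron progenitor markers were lower (572 against 2383 CPM). Beside them, 18.1% of all features were higher and 9.86% lower. Stroma summed to 5721 CPM and smooth muscle to 2050 CPM on the E12.5 cultured plate. The part of these shifts in the collagen ratios was not tested. In wells with a count of Foxd1, a stromal transcription factor, and none of Six2 or Epcam, the summed collagen level was 3.89-fold higher after culture from E11.5 and 4.01-fold higher after culture from E12.5. The stromal list also differed between these wells, at 2978, 7708 and 6536 CPM, and its part was not tested. This comparison was chosen after seeing the data. Within such wells 20 of 34 collagens were higher and 5 lower on the E11.5 cultured plate (12.4% and 9.53% of all features). Col1a1 was 7.23-fold higher (6.76 to 7.75), Col6a1 12.49-fold and Col6a2 11.6-fold. For the E12.5 culture, 18 of 33 were higher, where all features gave 11.3%, and 4 were lower, where 1350 of 11232 features were. Within Six2 wells the collagen sum was 8.85-fold higher on the E11.5 cultured plate, with 19 of 27 collagens higher and 3 lower (13.8% and 10.9% of all features). For the E12.5 culture it was 8.47-fold higher, with 20 of 28 higher and 1 lower (12.1% and 10.5%). Most cultured Six2 wells held 1 to 3 Six2 counts, and the stromal list in Six2 wells stood at 714, 4745 and 4099 CPM. In the wells with at least 4 Six2 counts (24, 5 and 4 wells) the collagen share was 0.125%, 0.296% and 0.965%. Col6a6, higher over all wells of the E11.5 cultured plate, had a log2 ratio of -0.86 within Foxd1 wells, and Col18a1 on the E12.5 cultured plate one of -1.14.

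Genes that fold, process, bind and break down collagen were taken from 4 lists. Of the folding, modification and secretion list, 14 of 23 measured genes were higher on the E11.5 cultured than on the uncultured plate and 0 lower, where 18.1% of all features were higher and 9.86% lower. Their median log2 ratio was 1.26 beside 0.07 for all features. The largest ratios were those of the prolyl 4-hydroxylase subunits P4ha2 (15.8, 12.49 to 20.4) and P4ha1 (7.91) and of Creb3l1 (8.09), a transcription factor of the secretory pathway. The smallest called were Fkbp14, a foldase (2.07), Plod3, a lysyl hydroxylase (2.08), and P4hb, the shared prolyl hydroxylase subunit (2.39). Serpinh1, the collagen chaperone, stood at 892 CPM before culture and 2194 CPM after it.

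Of the processing and crosslinking list, 10 of 13 were higher and 0 lower. For this and the following lists of the same comparison, 18.1% of all features were higher and 9.86% lower. Adamts2, which cuts the amino-terminal propeptide, had a ratio of 33.1, the lysyl oxidase Lox 26.6 and the transglutaminase Tgm2 16.97. The smallest called were Loxl3 (2.55), Bmp1, the carboxy-terminal procollagen proteinase (2.78), and Loxl2 (3.39). Of the receptors, 6 of 8 were higher, led by the integrin chains Itga11 (12.96), Itga10 (4.10) and Itga1 (3.38), with Ddr1 (2.28), Mrc2 (3.10) and Ddr2 (3.20) the smallest. Of the breakdown list, 6 of 11 were higher and 0 lower. Timp3, an inhibitor of matrix proteinases, had 6.20, the proteinases Ctsk 5.44 and Mmp14 3.07, and the smallest called were Ctsl (2.03), Mmp2 (2.49) and Timp1 (2.57). For the E12.5 culture the counts of the same 4 lists were 11 of 23, 8 of 12, 4 of 8 and 6 of 11 higher, with 1 lower in all, the proteinase inhibitor Reck, where 16.5% of all features were higher and 10.9% lower.

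The cultured plates were also set against each other. Of 38 collagens compared, 5 were higher on the E11.5 cultured than on the E12.5 cultured plate and 3 lower, beside 5.60% and 2.76% of all features. Col4a5 (2.59-fold), Col4a6 (2.06-fold) and Col6a6 (2.39-fold) were higher, as were Col6a4 (37 counts against 1) and Col20a1 (29 against 1). Col2a1 was 3.87-fold lower, Col18a1 2.75-fold and Col4a4, a glomerular type IV chain, 2.37-fold. The endothelial well named above held 40.1% of the Col18a1 counts of the E12.5 cultured plate, and 5 wells of that plate with at least 3 podocyte markers held 81.8% of its 33 Col4a4 counts, 15 of them in 1 well. Col1a1 was 1.57-fold higher (1.54 to 1.59) and Col4a1 stood at 0.706 of the E12.5 cultured level, neither reaching the fold used here.

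Chains that assemble together did not keep one ratio. Col1a1 counts per Col1a2 count were 0.795 (0.754 to 0.838), 1.13 (1.10 to 1.15) and 1.55 (1.52 to 1.58). The same order held in Foxd1 wells, with 0.742, 1.34 and 1.66, and in the multi-cell wells of the cultured plates, with 1.16 and 1.64. Among wells with at least 10 counts of the pair, Col1a1 exceeded Col1a2 in 44 of 132, 116 of 180 and 248 of 289. Only the change between plates can be read, since a count ratio of a pair of genes also depends on capture. Col4a1 counts per Col4a2 count went from 1.07 (0.982 to 1.18) to 1.34 and 1.45, but stood at 1.26, 1.26 and 1.57 in Foxd1 wells and at 1.10, 1.04 and 1.71 in Six2 wells, so the step after culture from E12.5 was not seen within these wells. Col6a3 counts per Col6a2 count fell from 0.713 to 0.274 and 0.306, while Col6a1 per Col6a2 was 0.770, 0.820 and 0.745. Col9a1 counts per Col9a2 count went from 3.22 (2.25 to 4.69) to 0.342 and 0.399. In Foxd1 wells it was 3.70, 0.447 and 1.11 (0.690 to 1.79), and without the 10 wells that held most counts of the pair the E11.5 culture stood at 0.224.

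**Figure D2:**
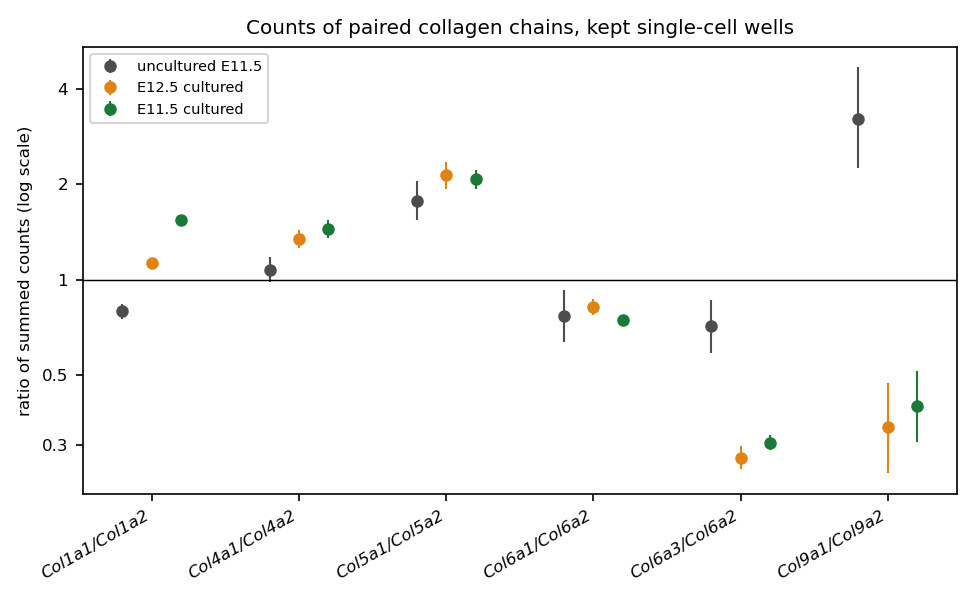
Counts of the first chain divided by counts of the second for 6 collagen chain pairs (log axis), in kept single-cell wells of the uncultured E11.5 (grey), E12.5 cultured (orange) and E11.5 cultured (green) plates; bars are 95% counting intervals. Col1a1/Col1a2 steps up from 0.795 to 1.13 and 1.55 and Col9a1/Col9a2 down from 3.22 to 0.342 and 0.399, while Col6a1/Col6a2 sits at 0.770, 0.820 and 0.745.

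Wells were also grouped by 3 kidney lineage genes: Six2, the nephron progenitor transcription factor, Foxd1 of the stroma, and Epcam of the epithelium, each with at least 1 count and none of the other genes. These groups held 52, 18 and 25 Six2 wells, 98, 72 and 76 Foxd1 wells, and 8, 9 and 5 Epcam wells. Median counts per well were 7962, 16205 and 9786 in Six2 wells and 5349, 7869 and 10299 in Foxd1 wells. Collagen made up 0.271%, 2.30% and 2.40% of counts in Six2 wells, 0.726%, 2.91% and 2.82% in Foxd1 wells, and 0.134%, 0.556% and 0.630% in Epcam wells. Epcam wells had the lowest share of these groups on all 3 plates. In Six2 wells with at least 4 Six2 counts, described further on, the share was 0.125%, 0.296% and 0.965%. That was under the Epcam share on the uncultured and E12.5 cultured plates, and above it on the E11.5 cultured plate.

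**Figure D3:**
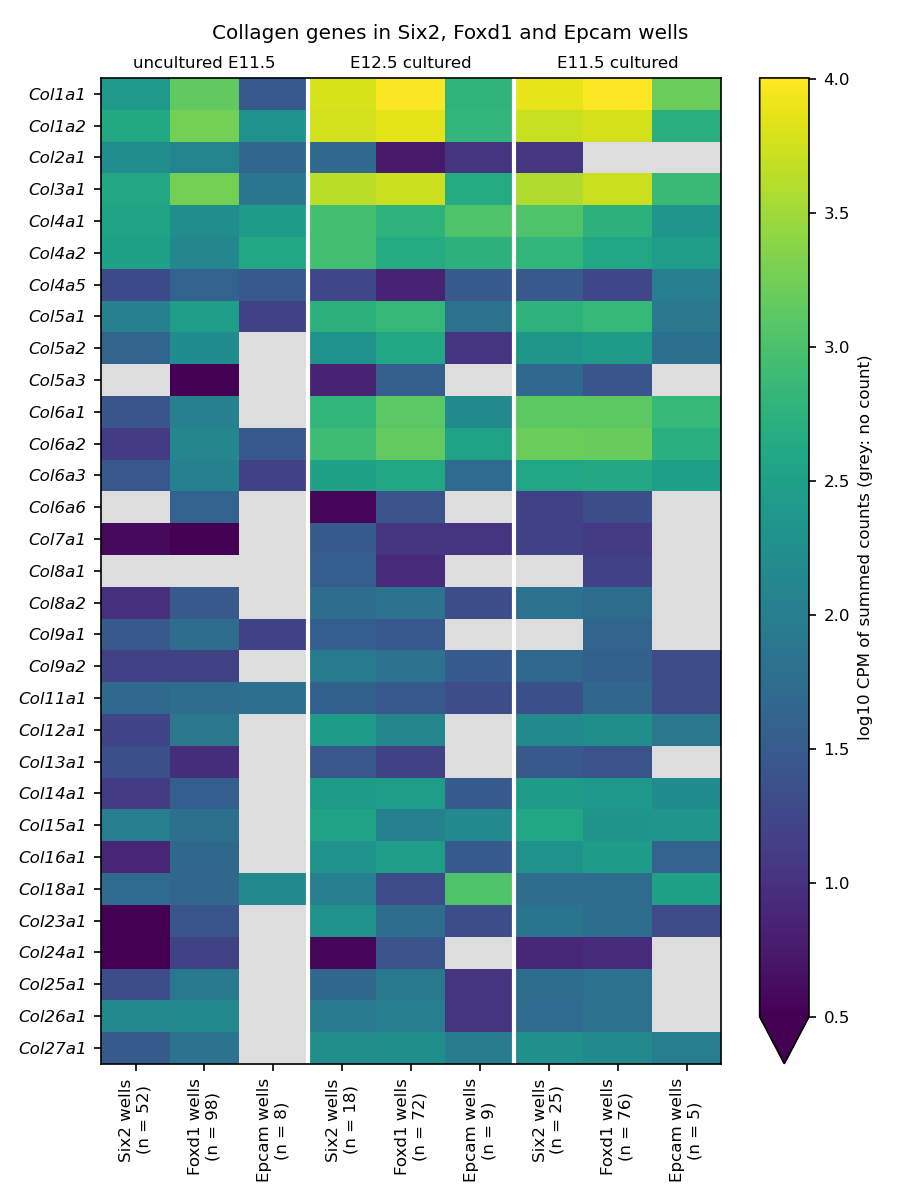
Levels (log10 CPM of summed counts) of the 31 collagen genes with at least 100 counts in Six2, Foxd1 and Epcam wells of the 3 plates; grey marks genes without a count, and n is the number of wells. On the uncultured plate the rows of Col1a1, Col1a2 and Col3a1 are brightest in Foxd1 wells, where Col1a1 stands at 1398 CPM. Col18a1 is brightest in Epcam wells of the E12.5 cultured plate at 1094 CPM.

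On the uncultured plate, fibrillar genes of types I, III, V, XXIV and XXVII stood higher in Foxd1 than in Six2 wells. Col2a1 and Col11a1 were not called. Of 30 collagens compared, 18 were higher in Foxd1 than in Six2 wells and 2 lower, beside 7.86% and 4.53% of all features. Col1a1 stood at 1398 against 252 CPM (5.56, 4.62 to 6.71), Col1a2 at 1885 against 431 and Col3a1 at 1860 against 409. Col6a2 was 9.91-fold higher (4.61 to 25.4), Col12a1 4.52-fold (2.20 to 10.4), Col16a1 6.38-fold, and Col6a6 at least 6.91-fold, with 26 counts against 0. Col5a1, Col5a2, Col6a1, Col6a3, Col8a2, Col9a3, Col14a1, Col23a1, Col24a1, Col25a1 and Col27a1 were the other genes called higher, with ratios of 2.11 (Col27a1) to 13.6 (Col23a1, 17 counts against 1).

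Col4a1 and Col4a2 were the pair called lower. Col4a1 stood at 165 CPM in Foxd1 and 355 in Six2 wells (2.16-fold lower), and Col4a2 at 131 against 323 (2.46-fold lower). Neither call was made against the Six2 wells with at least 4 Six2 counts, described further on, where Col4a1 stood at 266 CPM (a ratio of 0.617, 0.452 to 0.847). The endothelial list was at 304 CPM in Foxd1 and 603 in Six2 wells, and its part was not tested. In it 3 of 7 markers were lower, beside 4.53% of all features. The fibrillar sum was 3.93-fold higher in Foxd1 wells and the basement membrane sum stood at 0.527 of the Six2 level. In the same comparison the stromal list was at 2978 against 714 CPM and the leukocyte list at 762 against 272, whose part was not tested. A single Six2 well held 61.3% of the Col1a1 and 67.2% of the Col1a2 counts of that group. Without the top well of each group the log2 ratio of Col1a1 was 3.70 in place of 2.47.

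In the E12.5 culture 3 of 32 collagens were higher in Foxd1 wells and 6 lower, beside 4.15% and 4.62% of all features. Col5a3, Col6a6 and Col24a1 were higher, and Col2a1, Col8a1, Col12a1, Col15a1, Col18a1 and Col23a1 lower. Against the wells with at least 4 Six2 counts, the log2 ratios of Col12a1, Col15a1 and Col23a1 turned positive (3.21, 1.46 and 0.49). In the E11.5 culture 1 of 32 was higher, Col9a1 (at least 3.80-fold, 40 counts against 0), and 0 lower, beside 4.29% and 4.90%; without the interval rule 4 were higher. Col1a1 stood at 7392 CPM in Six2 and 10109 CPM in Foxd1 wells there.

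Many cultured Six2 wells rested on 1 Six2 count, 11 of 18 and 18 of 25, against 16 of 52 on the uncultured plate. After seeing this, Six2 wells were split at 4 counts. In wells with at least 4 Six2 counts, Col1a1 stood at 54.1 CPM before culture (24 wells, median 0, range 0 to 381). After culture it stood at 377 CPM from E12.5 (5 wells at 291, 340, 353, 392 and 496) and at 3219 CPM from E11.5 (4 wells at 808, 1626, 4829 and 5210). In wells with 1 to 3 Six2 counts it stood at 445, 8409 and 8174 CPM. In the E12.5 culture the 5 wells with more Six2 lay close together and far under the summed level of the others. Single wells of the others ran from 334 to 27896 CPM, so the ranges overlapped. The 4 wells of the E11.5 cultured plate lay within the range of the others (588 to 37401 CPM).

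Marker lists differed between these wells as well. With at least 4 Six2 counts the stromal list summed to 398, 391 and 1358 CPM and the nephron progenitor list to 4384, 4623 and 4267. With 1 to 3 counts the stromal list summed to 1023, 6301 and 4613 and the nephron progenitor list to 2018, 611 and 554. Measured against the wells with at least 4 Six2 counts, Foxd1 wells had 25.9-fold (15.3 to 47.5), 25.8-fold (17.8 to 38.9) and 3.13-fold (2.64 to 3.75) more Col1a1. Before culture 18 of 30 collagens were then higher and 0 lower, beside 9.70% and 4.80% of all features. In the E12.5 culture 15 of 30 were higher and 2 lower, beside 6.42% and 7.68%. In the E11.5 culture 8 of 30 were higher and 0 lower, beside 1.97% and 3.55%. Col4a1 stood at 266, 486 and 533 CPM in the wells with at least 4 Six2 counts.

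**Figure D4:**
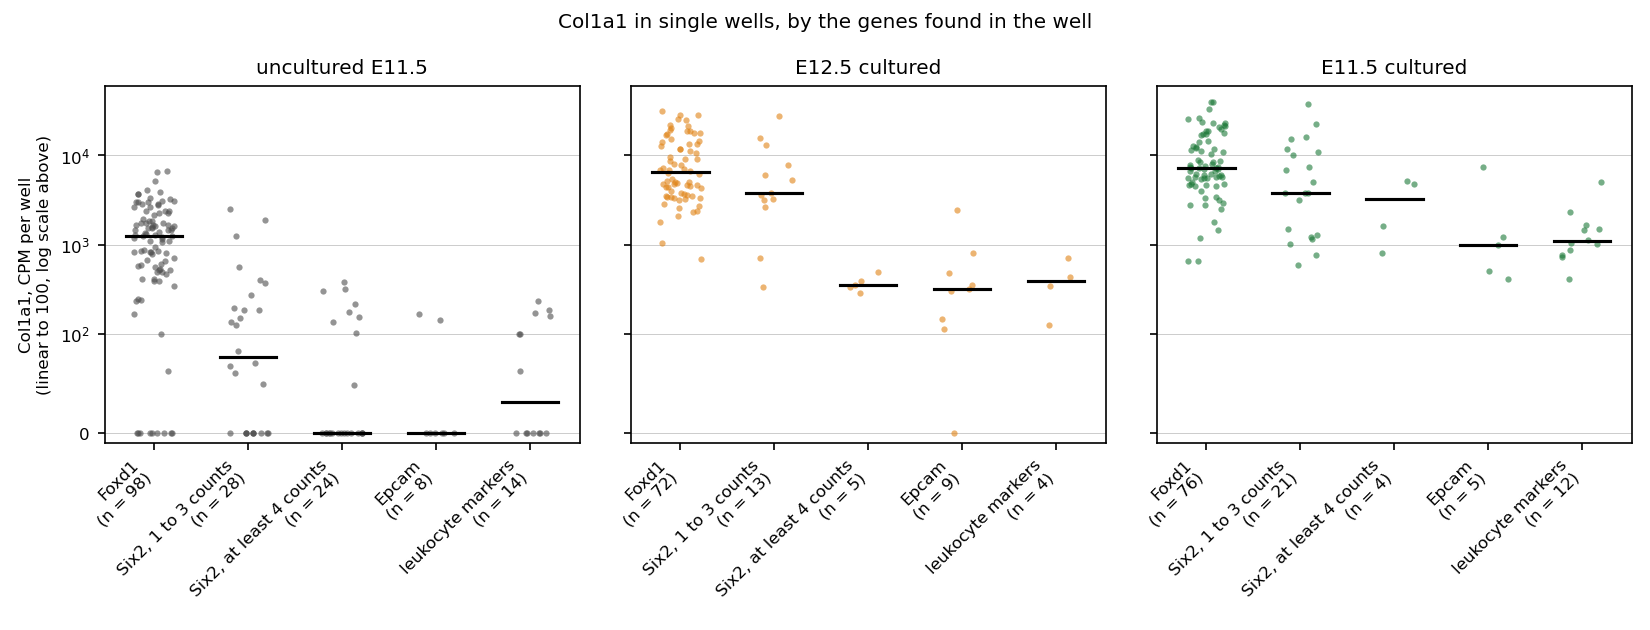
Col1a1 level in single wells (CPM per well, linear to 100 and log above), for wells with Foxd1, with 1 to 3 or at least 4 Six2 counts, with Epcam, or with at least 6 of 7 leukocyte markers, on each plate; black lines are medians and n is the number of wells. Foxd1 wells have medians of 1249, 6529 and 7287 CPM, and the 5 wells with at least 4 Six2 counts on the E12.5 cultured plate lie between 291 and 496.

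Wells with at least 6 of 7 leukocyte markers (14, 4 and 12 wells) serve as a comparison, since leukocytes are not known for type I collagen. Their stromal list summed to 282, 371 and 1079 CPM and no doublet caller was run. The source of the Col1a1 in them was not tested. The groups overlapped: 1, 1 and 3 Six2 wells, 4, 0 and 1 Foxd1 wells, and 0, 0 and 1 Epcam wells were also leukocyte wells. None of the Six2 wells with at least 4 Six2 counts was. Summed Col1a1 in these leukocyte wells was 70.5, 329 and 1935 CPM, with single wells between 0 and 237, 125 and 715, and 412 and 5028. Six2 wells with at least 4 counts stood beside them at 54.1, 377 and 3219 CPM. On the first and second of these plates the levels differed little from those of the leukocyte wells. Foxd1 wells stood 19.8-, 29.5- and 5.22-fold above the leukocyte wells. Every kept well of the E11.5 cultured plate held a Col1a1 count, leukocyte wells included, so the share of wells with a count was not read as the share of cells that express it. Control wells held 0.467, 1.4 and 2.13 Col1a1 counts on average, against 7.42, 83.4 and 119 in a kept well.

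Epcam wells were few, and their Col1a1, Col1a2 and Col3a1 levels were the lowest of the 3 groups on each plate. On the E11.5 cultured plate 1 of the 5 Epcam wells and 3 of the 25 Six2 wells were also leukocyte wells. The leukocyte list stood there at 3191 CPM in Epcam, 2097 in Six2 and 234 in Foxd1 wells, and its part was not tested. The ranking takes all Six2 wells. Those of the E12.5 culture with at least 4 Six2 counts had a collagen share of 0.296%, under the 0.556% of its Epcam wells. On the uncultured plate Col1a1 stood at 30.03 CPM in them, from 2 counts, Col1a2 at 195 and Col3a1 at 75.1. That is 0.25 Col1a1 counts per Epcam well, fewer than the 0.467 of a control well. Col1a1 was thus not above the control wells there, and its ratios to other wells are limited by that. Col3a1, with 0.625 counts per Epcam well against 0.533 per control well, and Col1a2, with 1.625 against 1.27, were near the control wells too. Of 28 collagens compared with Foxd1 wells, 13 were lower and 2 higher, beside 4.01% and 4.67% of all features. The pair that was higher was of the basement membrane class, Col4a2 (2.98-fold, 1.85 to 4.67) and Col18a1 (3.29-fold, 1.43 to 6.91). Where Epcam wells had no count, the call used the ratio of 0 itself, so for Col12a1, Col15a1, Col25a1 and Col27a1 the bound against 3 counts was under the 2-fold limit.

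Against Six2 wells of the same plate, 7 of 19 collagens were lower in Epcam wells and 1 higher, beside 2.37% and 3.60% of all features. Col18a1 was the one higher (2.81-fold, 1.22 to 5.96). Col1a2 was 2.21-fold lower, though its counts per Epcam well were near those of a control well. Its ratio turned positive when the top well of each group was left out (log2 0.21). With wells holding the remaining lineage gene allowed, the log2 ratios of Col1a1 and Col3a1 also turned positive, from -3.07 to 0.43 and from -2.44 to 0.365. In the E12.5 culture Col18a1 stood at 1094 CPM in the 9 Epcam wells (893 to 1327) and at 20.8 CPM in Foxd1 wells, a ratio of 52.6 (30.4 to 97.2). Single Epcam wells ran from 202 to 2484 CPM, so all of them held it. This comparison was chosen after seeing the data. In it, 1 of 28 collagens was higher and 13 lower, beside 8.72% and 6.03% of all features, with Col1a1 16.4-fold and Col3a1 11.6-fold lower. In Epcam wells of the E11.5 cultured plate Col18a1 was at 322 CPM, with 68.8% of its 16 counts in 1 of the 5 wells.

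Wells with at least 3 markers of a cell type held most counts of some collagens. On the uncultured plate 19 wells with endothelial markers held 93.0% of Col15a1 counts (347 against 4.85 CPM in the rest) and stood higher in Col4a1 (582 against 175 CPM) and Col4a2 (474 against 175). The deepest well of the plate was among them, with 364620 counts, 5 endothelial, 12 nephron progenitor and 10 stromal markers. Without it the other 18 wells stood at 784 CPM for Col15a1, 1197 for Col4a1 and 931 for Col4a2. On the cultured plates the wells with smooth muscle or pericyte markers were 69 of 200 and 90 of 300 kept wells. They held 88.7% and 80.1% of Col8a1 counts, or 76.9% and 53.6% without the well that held most of them. Without it Col8a1 stood at 18.6 against 4.81 CPM in the rest (E12.5) and at 11.7 against 6.88 CPM (E11.5). The last pair rests on 15 against 13 counts. Col4a1 stood in the wells with smooth muscle or pericyte markers at 1205 against 681 CPM and at 907 against 477. The E12.5 ones also held 78.1% of Col12a1, a share not set beside their share of all counts. For the E12.5 culture Col4a4 stood at 175 CPM in 5 wells with podocyte markers and at 2.73 in the rest, and at 112 CPM without the well that held 15 of their 27 counts. The well of that plate with all 7 endothelial markers was 1 of the 5. It had 3 podocyte markers, 77740 counts in all and 0 of Col4a4. Wells with podocyte markers held 4 of 19 Col4a4 counts in the E11.5 culture (55.0 against 4.78 CPM) and 0 of 11 before culture. The single wells to leave out were chosen after seeing the data.

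Each cultured plate also had 42 wells that were given more than 1 cell, of which 38 and 36 were kept. Those of the E12.5 culture held less collagen, 0.836% against 2.42% of counts. Of 36 collagens compared with single-cell wells, 18 were lower and 2 higher, beside 6.66% and 7.23% of all features. Col1a1 stood at 1968 against 7097 CPM (3.61-fold lower), Col1a2 at 1691 against 6292 and Col3a1 at 1298 against 4185. Col9a2 was 5.19-fold lower, Col16a1 3.88-fold and Col6a1 3.19-fold. Col2a1 went the other way, at 99.7 against 14.5 CPM (6.89-fold higher, 4.48 to 10.8), as did Col4a5 (2.44-fold higher). The fibrillar sum stood at 0.293 of the single-cell level and the basement membrane sum at 0.745. Stromal markers were lower in the multi-cell wells (1852 against 5721 CPM), smooth muscle markers too (260 against 2050), and nephron progenitor markers were higher (2890 against 678), and their part was not tested.

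On the E11.5 cultured plate the multi-cell wells stood close to the single-cell wells in their sum, at 3.06% of counts, but 1 well decided this. Col1a1 stood at 12334 against 11105 CPM. The deepest multi-cell well held 49.3% of their collagen counts and 26.8% of all their counts, and without it collagen made up 2.12% and Col1a1 stood at 7780 CPM. Of 39 collagens compared, 4 were higher and 7 lower, beside 3.74% and 4.12% of all features. Col2a1 was 8.06-fold higher, Col4a3 10.2-fold (3.17 to 38.0), Col4a4 16.1-fold (9.47 to 28.5) and Col4a5 2.04-fold. A single well held 7 of 10 Col4a3 and 45.1% of 60.1 Col4a4 counts. Without it the ratios were 3.23 for Col4a3 (0.501 to 16.6), 9.34 for Col4a4 (5.16 to 17.4) and 1.77 for Col4a5, so Col4a3 and Col4a5 were no longer called. Another well held 9 of 19 Col2a1 counts, and without it Col2a1 was 4.398-fold higher (1.70 to 11.1). These wells were chosen after seeing the data. Col4a3, Col4a4 and Col4a5 together form the type IV network of the glomerular filter. Podocyte markers stood at 546 against 153 CPM in the same wells. Col5a3, Col6a4, Col6a5, Col6a6, Col7a1, Col8a1 and Col23a1 were lower; Col6a5 had 0 counts there, and its bound was 1.77-fold. Without wells over 3 times the plate's median, the log2 ratio of Col8a1 went from -1.67 to 0.50, and 1 single-cell well held 57.1% of its single-cell counts.

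**Figure D5:**
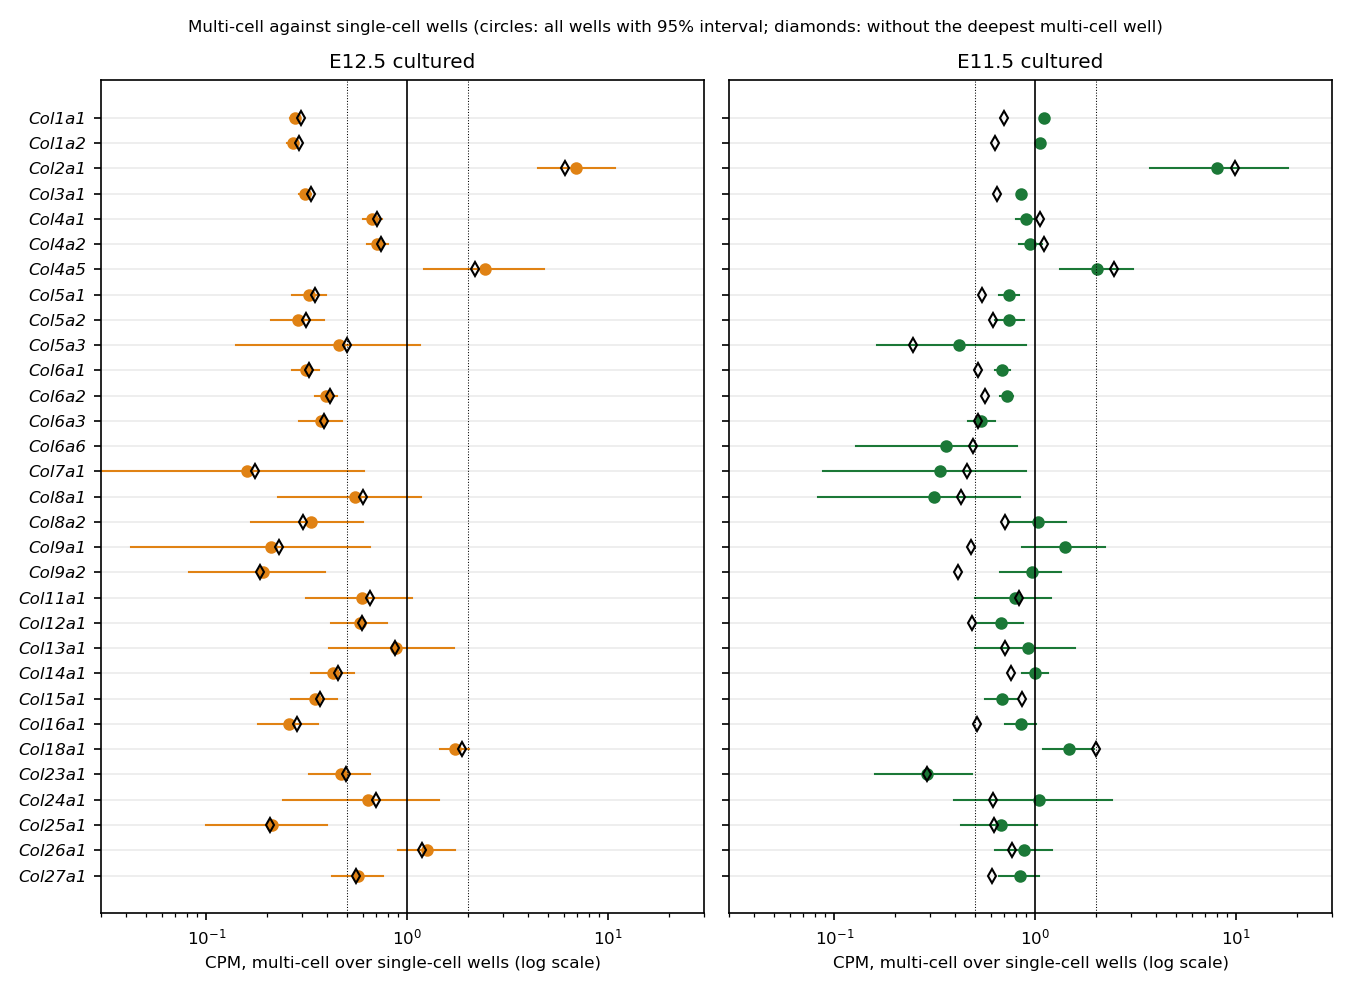
Level in multi-cell over single-cell wells (log axis) for the collagen genes with at least 100 counts on the E12.5 cultured (left) and E11.5 cultured (right) plates; circles with bars are all wells with 95% counting intervals, diamonds leave out the deepest multi-cell well, and dotted lines mark 2-fold. Col2a1 lies to the right on both plates (6.89 and 8.06), whereas Col1a1 lies at 0.277 on the left plate and at 1.11 on the right one, with its diamond under 1.

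Counts of some genes came mostly from 1 well. Among single-cell wells this held for Col6a5 on the E12.5 cultured plate (11 of 16 counts) and for Col8a1 on both cultured plates (51.0% of 53.1 counts and 57.1% of 65.2 counts). Each of these Col8a1 wells had all 6 smooth muscle and pericyte markers. Among multi-cell wells of the E12.5 cultured plate, 1 well held 52.3% of Col1a2 and 54.7% of Col14a1 counts. In those of the E11.5 cultured plate the deepest well held over 50% of Col1a1, Col1a2, Col8a2, Col9a1, Col9a2 and Col16a1 counts, up to 75% for Col9a1, and another well held 7 of the 10 Col4a3 counts.

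Across single wells the genes of collagen types I and III varied together. Spearman's rho of Col1a1 with Col1a2 over the 337, 200 and 300 kept wells was 0.73, 0.84 and 0.85, and of Col1a1 with Col3a1 0.72, 0.77 and 0.77. Other fibrillar pairs had lower values. Col1a1 with Col2a1 gave 0.02, -0.09 and -0.08, and Col5a1 with Col5a2 gave 0.33, 0.36 and 0.35. Col1a1 and Col4a1 had rho of -0.29, -0.07 and -0.03. Col4a1 with Col4a2 gave 0.38, 0.72 and 0.59, and Col6a1 with Col6a2 0.36, 0.77 and 0.69. The wells of a plate share its library and its free RNA, and the fibrillar sum had rho of -0.30, -0.08 and 0.05 with the counts of a well. The 90th percentile of fibrillar CPM was 30.4, 25.3 and 13.7 times the 10th, so the spread between wells was narrower on the E11.5 cultured plate.

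The genes whose wells were most like those of the fibrillar sum, collagens left out, changed between the plates. On the uncultured plate they included Nfib (rho 0.63), Fstl1 (0.63), Pdgfra (0.59) and Dact1 (0.58) of 4731 genes with at least 200 counts. On the E12.5 cultured plate they were Sparc (0.75), Dcn (0.71), Pcolce (0.61), Serpinh1 (0.61) and Bgn (0.60) of 2533. On the E11.5 cultured plate they were Sparc (0.78), Dcn (0.70), Serpinh1 (0.61), Lox (0.61) and Meg3 (0.60) of 3606. The median rho over all such genes was -0.06, -0.04 and 0.00.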

How the data were processed

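SORT-seq tables of 3 plates were used, 1 per group. Per the submitters' processing notes, reads were aligned with STAR 2.6.1a to GRCm38.p5 and counted with featureCounts 1.5.2. Per the deposited tables, the values are estimated counts, corrected for molecular identifiers (4096 possible) by the authors, which need not be whole. Labels gave the multi-cell and control wells. The filter on wells was a minimum of 1000 counts and a mitochondrial share up to 30%. Counts were summed, divided by nuclear-encoded totals and given as CPM, with exact Poisson, binomial or conditional 95% intervals. With 1 plate per group, no test was made; the 3-count floor is over the group summed. Cultured and uncultured plates carry different run codes in the labels.

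Members and lists were chosen with earlier results of these data known. Every member with at least 100 counts (31 of 43) is named with its levels; from each pathway list up to 3 genes with the largest and 3 with the smallest called ratio are named. Strand use, sort gate and doublet removal are not given in the sources used here; no doublet caller was run, and overlapping genes cannot be told apart. The self-test on simulated counts ran first. Scripts ran on Python 3.11.15 with pandas 2.3.3 (tables), scipy 1.17.1 (intervals), numpy 2.4.6 and matplotlib 3.10.9. Alternatives changed the well filter, scaling, call rule and well groups. Of the 5 genes most like the fibrillar sum on the uncultured plate, 1 is not reported here.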

Additional observations from a re-analysis of the deposited data

Results flagged for a closer look

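Col12a1 and Col23a1 had opposite directions on different plates in Foxd1 over Six2 wells. Col12a1 had a ratio of 4.52 on the uncultured and 0.455 on the E12.5 cultured plate, and Col23a1 of 13.6 and 0.286. The difference was not tested. With Six2 wells of at least 4 Six2 counts, the log2 ratios on the E12.5 cultured plate were 3.21 for Col12a1 and 0.49 for Col23a1.

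Counts that the tables assign to no well also held collagens: 675.2 counts (0.373% of such counts) before culture, 2897.3 (2.17%) in the E12.5 culture and 5671.7 (3.33%) in the E11.5 culture. Their size lies near that in the kept wells (0.376%, 2.42% and 3.16%), and they entered no comparison.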

How the results depend on the processing

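No paired analysis was possible because each group was 1 plate. Of 222 alternative counts of called collagens, 168 were within 1.5 times the reported one and 54 moved. Of 2329 alternative ratios for 265 gene ratios, 1871 were labelled the same, 445 moved outside the reported interval and 13 turned the sign of a called ratio. Sign changes of ratios that were not called were not counted apart. Shares of wells were read from thinned wells at 1000 counts; at 3000 counts 80 of 93 moved. Depth limits the Epcam wells and genes near 3 counts.

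Below, a pair of values is higher, then lower, unless 1 direction is named. Leaving out wells over 3 times the plate's median gave 3 lower for Epcam over Six2, 1 and 8 for Epcam over Foxd1, and 5 and 2 higher for Foxd1 over Six2 on the E12.5 and E11.5 cultured plates. With the mean of per-well CPM, 5 were lower on the E12.5 cultured than the uncultured plate, 4 higher (E12.5) and 14 lower (E11.5) in multi-cell wells, 4 lower for uncultured Foxd1 over Six2, 3 and 12 for Epcam over Six2, 23 lower for Epcam over Foxd1, and 6 and 10 (E12.5) and 6 and 2 (E11.5) for Foxd1 over Six2. With at least 50 counts in the pair, 2 were higher between the cultured plates, 1 and 2 higher in multi-cell wells (E12.5, E11.5), 11 higher for uncultured Foxd1 over Six2, 0 higher for Epcam over Six2, 1 higher for Epcam over Foxd1, 0 and 3 for Foxd1 over Six2 (E12.5) and 0 higher (E11.5). By fold alone, 13 and 23 were lower for Epcam over Six2 and over Foxd1, and 4 higher for Foxd1 over Six2 (E11.5). Without each gene's top wells, 1 was lower between the cultured plates, 2 higher in multi-cell wells (E11.5), 3 lower for Epcam over Six2, 1 higher for Epcam over Foxd1, and 6 and 2 higher for Foxd1 over Six2 (E12.5, E11.5). Well groups by at least 2 counts gave 2 and 2 for Epcam over Six2, 1 and 8 for Epcam over Foxd1, and 14 and 3 (E12.5) and 5 and 1 (E11.5) for Foxd1 over Six2. With the remaining gene allowed, 1 was lower for uncultured Foxd1 over Six2, 2 lower for Epcam over Six2, 1 higher for Epcam over Foxd1 and 2 higher for Foxd1 over Six2 (E11.5). Settings chosen after seeing the data gave, against the uncultured plate, 3 and 1 lower within Six2 wells and 5 and 4 lower within Foxd1 wells (E11.5, E12.5). With at least 4 Six2 counts, Foxd1 over Six2 gave 0 lower (uncultured), 15 and 2 (E12.5) and 8 higher (E11.5).

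Log2 ratios of called genes that changed sign, with the reported value after "from", were as follows. In Epcam over Six2 wells Col1a2 went from -1.14 to 0.70 without deep wells, 0.21 without top wells, 1.67 with groups by 2 counts and 0.53 with the remaining gene allowed. With that gene allowed, Col1a1 went from -3.07 to 0.43 and Col3a1 from -2.44 to 0.365. Without deep wells Col8a1 in E11.5 multi-cell wells went from -1.67 to 0.50. Within Foxd1 wells Col6a6 went from 1.08 to -0.86 (E11.5), and Col18a1 from 1.54 to -1.14 and Col25a1 from 1.24 to -0.0074 (E12.5). With at least 4 Six2 counts (E12.5), Col12a1 went from -1.13 to 3.21, Col15a1 from -1.68 to 1.46 and Col23a1 from -1.80 to 0.49. The cause was not tested.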
